A study of Mus musculus with 2 samples.

Results

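The genes described here are 36 genes of DNA replication that E2F transcription factors are known to drive, from the proteins that mark and license origins to the enzymes that make deoxynucleotides and the factors that rebuild chromatin behind the fork. They were chosen by gene symbol, and for each gene the brightest probe set of the array stood for the gene. Of the 36 genes, 35 had a probe set with their symbol in the platform annotation, among 18193 genes in all. The exception was Chaf1a, the large subunit of chromatin assembly factor 1, which was not analysed here.

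The study set 1 expression array of B-lymphoma cells labelled Cdk4+/+:Eµ-Myc against 1 array of B-lymphoma cells labelled Cdk4-/-:Eµ-Myc. Both genotypes carry the Eµ-Myc transgene, in which an immunoglobulin enhancer directs Myc to B-lineage cells, and the labels name mouse lymph nodes for both. The age of the mice and the number of tumours behind a culture are not given in the sources used here. With 1 array in each group, each difference below compares 2 cultures and has no replicate error and no p-value.

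In cycling cells, cyclin D with CDK4 or CDK6, and later cyclin E with CDK2, phosphorylate the retinoblastoma protein and its relatives, which frees E2F factors to switch on genes of S phase. Origin recognition proteins, CDC6 and CDT1 load the ring of MCM proteins onto DNA. CDC45 and GINS join the ring to form the working helicase, and polymerases, the sliding clamp PCNA and its loader RFC then copy the strands. Myc is known to promote entry into S phase as well, and Eµ-Myc lymphoma cells divide quickly.

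The targeted gene went against the labels. Cdk4 was read by 3 probe sets, at 1.19, 1.18 and 3.71 on the array labelled Cdk4+/+ and at 4945, 4506 and 6958 on the array labelled Cdk4-/-. The array labelled Cdk4-/- thus held at least 112-fold more Cdk4 signal, and every direction below follows the labels as given and would turn if they were exchanged. Values are deposited MAS5 signal intensities in arbitrary units, and a value below 62.2, the median of all signals, counted as at the floor. A gene is called measured below where both arrays read it above that floor. All 7 B-cell markers with a probe set (Cd79a, Cd79b, Pax5, Ebf1, Blnk, Cd22 and Ptprc) were measured, with summed intensities of 32807 on the array labelled Cdk4+/+ and 39132 on the array labelled Cdk4-/-. Of 6 genes listed as markers of T and NK cells, 2 were measured, Cd2 (346 and 931) and Zap70 (264 and 369). Sums over all 6 were 662 and 1350, most of it from Cd2. The defining genes Cd3d, Cd3e and Cd3g were below the floor on both arrays. Of 10 macrophage and granulocyte markers, the array labelled Cdk4+/+ read 3 above the floor and the array labelled Cdk4-/- 6, with sums of 294 and 2128. Mpo, Elane, S100a8 and S100a9 were below the floor on both arrays. Of 8 markers of stroma and endothelium, 4 were above the floor on each array, but not the same ones, with sums of 1024 and 1843. Pecam1 (695 and 777) made up much of both sums, the collagen genes Col1a1 (3.19 and 150), Col1a2 (85.5 and 591) and Col3a1 (33.6 and 286) were higher on the array labelled Cdk4-/-, and the endothelial genes Kdr (101 and 8.96) and Cdh5 (68.2 and 20.2) were lower there. None of 3 erythroid markers passed the floor. The part of these cells in the differences below was not tested.

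The replication genes stood at nearly the same level on both arrays. All 35 were measured, at intensities between 197 and 23857, so none was lost to the floor. The median log2 difference, array labelled Cdk4-/- minus array labelled Cdk4+/+, was -0.05 over the 35 genes. Of them 13 lay above 0 and 22 below.

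None of the 35 genes differed by 2-fold in either direction, whereas among all 9418 measured genes 4.26% were higher by at least 2-fold on the array labelled Cdk4-/- and 3.27% were lower. At 1.5-fold, 1 of the 35 was higher, the thymidylate synthase gene Tyms, and 0 were lower, against 11.1% and 9.56% of all genes. Genes with signals far above the floor differed less: among the 6085 genes above 458, the 75th percentile of all signals, on both arrays, 1.94% were higher and 1.36% lower by 2-fold, and 7.69% higher and 5.93% lower by 1.5-fold. Of the replication genes 33 pass that higher limit, and 0 of them reached 1.5-fold. The spread over the 35 differences (SD 0.26, and 0.21 without Tyms) was smaller than that over all 9418 genes (SD 0.63) and over the 6085 genes of the higher limit (SD 0.44). No test accompanies these shares, since 2 arrays allow none.

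An error could be taken only from genes that several probe sets read. Over 3082 genes with a second probe set of their own, a single probe set varied by an SD of 0.31 (log2), and a pair of probe sets lay within 0.84 of each other in 95% of genes. How far cultures or tumours vary is not part of this error. Of the 35 replication genes 28 (80%) lay within 1 such SD of 0, against 54.3% of all measured genes. The latter share includes genes of low signal, which differed more. Within 1.5-fold lay 97.1% of the replication genes, 86.4% of the 6085 genes above 458 and 79.3% of all measured genes. The 7 replication genes outside 1 probe set SD were Tyms, Cdt1 and Pola1 above 0 and Rfc3, Rfc4, Pcna and Pold1 below 0.

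**Figure D1:**
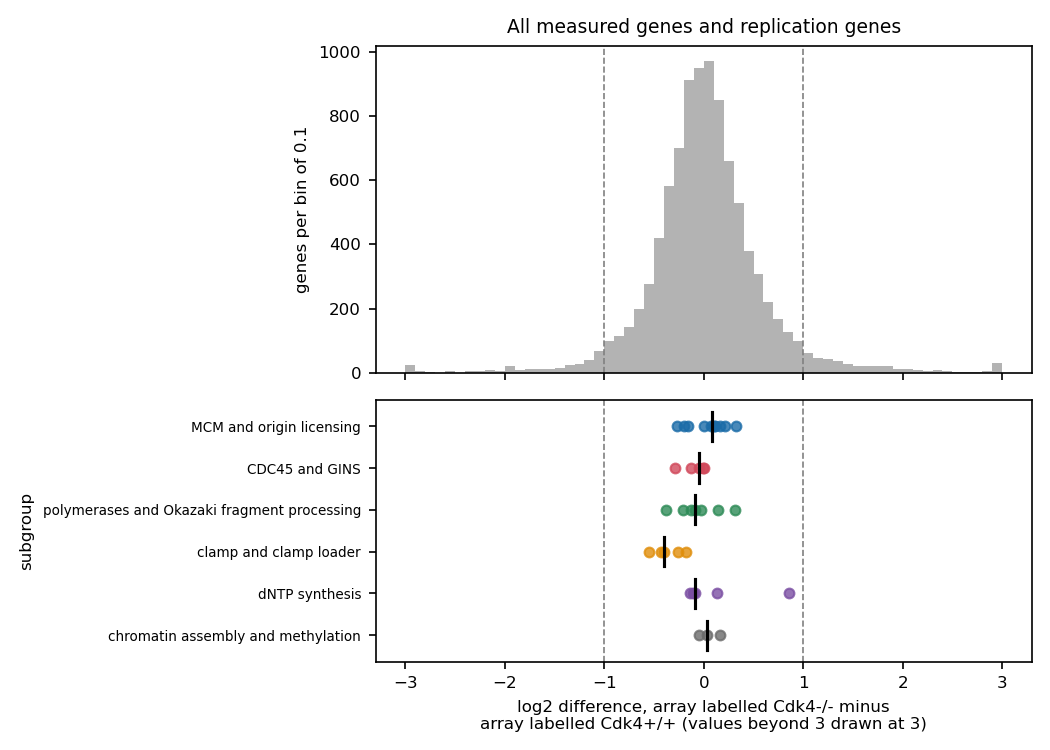
The upper panel shows how many of the 9418 measured genes fall in each bin of log2 difference (array labelled Cdk4-/- minus array labelled Cdk4+/+), and the lower panel shows the 35 replication genes by subgroup, with a black bar at each subgroup's median; dashed lines mark 2-fold. All 35 points lie inside the 2-fold lines, Tyms at 0.86 is farthest to the right, and the clamp and clamp loader genes lie to the left with a median of -0.40.

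Many promoters of these genes hold an E2F motif. The genes were chosen as E2F targets by name, so the frequency of the motif describes them and is no independent finding. RefSeq promoter windows (GRCm38.p6, from 250 bases before to 50 after a start) matched 30 of the 36 symbols. They were searched on both strands for the E2F motif in its forms TTTCCCGC, TTTCGCGC, TTTGCCGC and TTTGGCGC, where overlapping matches count apart and a gene with several windows counts once. At least 1 form was found in 14 of the 30 genes (46.7%), against 2.61% of all 27025 genes with windows and 5.22% of the 7745 of those measured here. The windows of 6 replication genes held 2 or more matches. The CCAAT box, as CCAAT, was found in 19 of 30 (63.3%), in 41.1% of all genes and in 43.5% of the measured ones. The E-box CACGTG, which Myc binds, was found in 4 of 30 (13.3%) and in 8.09% of all genes. Its share among the measured genes was 12.8%, close to that of the replication genes.

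The following stretches of 80 bases, all upstream of the start but not all next to it, are shown because they hold E2F matches of genes from 4 subgroups, among them the gene farthest below 0 (Rfc3) and one of those farthest above (Pola1). They are written in the direction of the gene from GRCm38.p6, with the matches in capitals. The last match before the start begins 27 bases ahead of it in Orc1, 138 in Cdc6, 149 in Mcm5, 47 in Mcm6, 41 in Gins3, 138 in Pola1 and 10 in Rfc3.
Orc1, chr4:108579374-108579453, plus strand: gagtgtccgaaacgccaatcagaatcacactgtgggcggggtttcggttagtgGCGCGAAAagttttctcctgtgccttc
Cdc6, chr11:98907977-98908056, plus strand: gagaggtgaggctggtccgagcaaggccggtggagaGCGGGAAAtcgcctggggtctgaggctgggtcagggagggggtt
Mcm5, chr8:75109324-75109403, plus strand: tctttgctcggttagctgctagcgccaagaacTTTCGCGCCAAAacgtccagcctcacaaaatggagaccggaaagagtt
Mcm6, chr1:128359709-128359788, minus strand: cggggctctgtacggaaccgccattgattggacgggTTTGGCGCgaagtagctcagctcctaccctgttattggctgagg
Gins3, chr8:95633479-95633558, plus strand: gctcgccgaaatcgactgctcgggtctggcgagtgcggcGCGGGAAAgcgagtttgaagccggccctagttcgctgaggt
Pola1, chrX:93632250-93632329, minus strand: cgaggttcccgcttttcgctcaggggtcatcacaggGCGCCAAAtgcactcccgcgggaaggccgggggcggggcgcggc
Rfc3, chr5:151651209-151651288, minus strand: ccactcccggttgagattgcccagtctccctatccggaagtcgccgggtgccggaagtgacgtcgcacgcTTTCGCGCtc

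In Mcm5 a pair of matches, 1 on each strand, overlap in the run of capitals. The motif was most frequent among origin licensing and MCM genes, with 7 of 9, and was found in none of the 5 genes of deoxynucleotide synthesis. A match is a string of letters and not a measured binding site, and its absence says only that these letters are not in the window. The 14 genes with a match had a median log2 difference of -0.02, from -0.55 to 0.33, with 7 above and 7 below 0. The 15 measured genes without one had a median of -0.11, from -0.43 to 0.86. Both groups of genes lay close to 0, and genes with a match such as Pola1 and Rfc3 stood at opposite ends.

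Origin licensing and MCM genes lay on either side of 0, with a median of 0.08 over 10 genes and a range from -0.27 to 0.33. Without shared probe sets, those that can read several transcripts, this median turned to -0.05. Orc1, the E2F-regulated subunit of the origin recognition complex, stood at 666 on the array labelled Cdk4+/+ and 698 on the array labelled Cdk4-/-. Cdc6, which brings the helicase to that complex, stood at 1511 and 1757, a difference of 0.22 from its only probe set. Cdt1, the partner of CDC6 in loading, stood at 5219 and 6548, the highest difference of this subgroup at 0.33. The second Cdt1 probe set read 3058 and 3876, a difference of 0.34, so both readings lie just outside 1 probe set SD.

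By their brightest probe sets, the 6 subunits of the replicative helicase ring differed by at most 0.27. Mcm2 stood at 7368 and 6577, a difference of -0.16. Mcm3 stood at 8299 and 8309 and Mcm4 at 6371 and 6905, differences of 0.00 and 0.12. Mcm5 stood at 7198 and 8034, a difference of 0.16 by a shared probe set, while its other 2 probe sets gave -0.04 and -0.03. Mcm6 stood at 9508 and 8301, a difference of -0.20. By the brightest probe sets these 5 genes were inside 1 probe set SD, 3 of them on the side of the array labelled Cdk4-/-.

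Mcm7 had the largest difference of the ring by brightest probe set, at 19513 and 16200, which is -0.27. Its other 3 probe sets gave -0.19, -0.25 and -0.07, the same side each time. Under quantile normalization, which matches the whole distribution of the arrays and moves the brightest genes most, Mcm7 stood at 0.09, so its direction depends on the scaling. Mcm10, which helps to switch on the loaded helicase and is not part of the ring, stood at 2353 and 2524, a difference of 0.10.

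**Figure D2:**
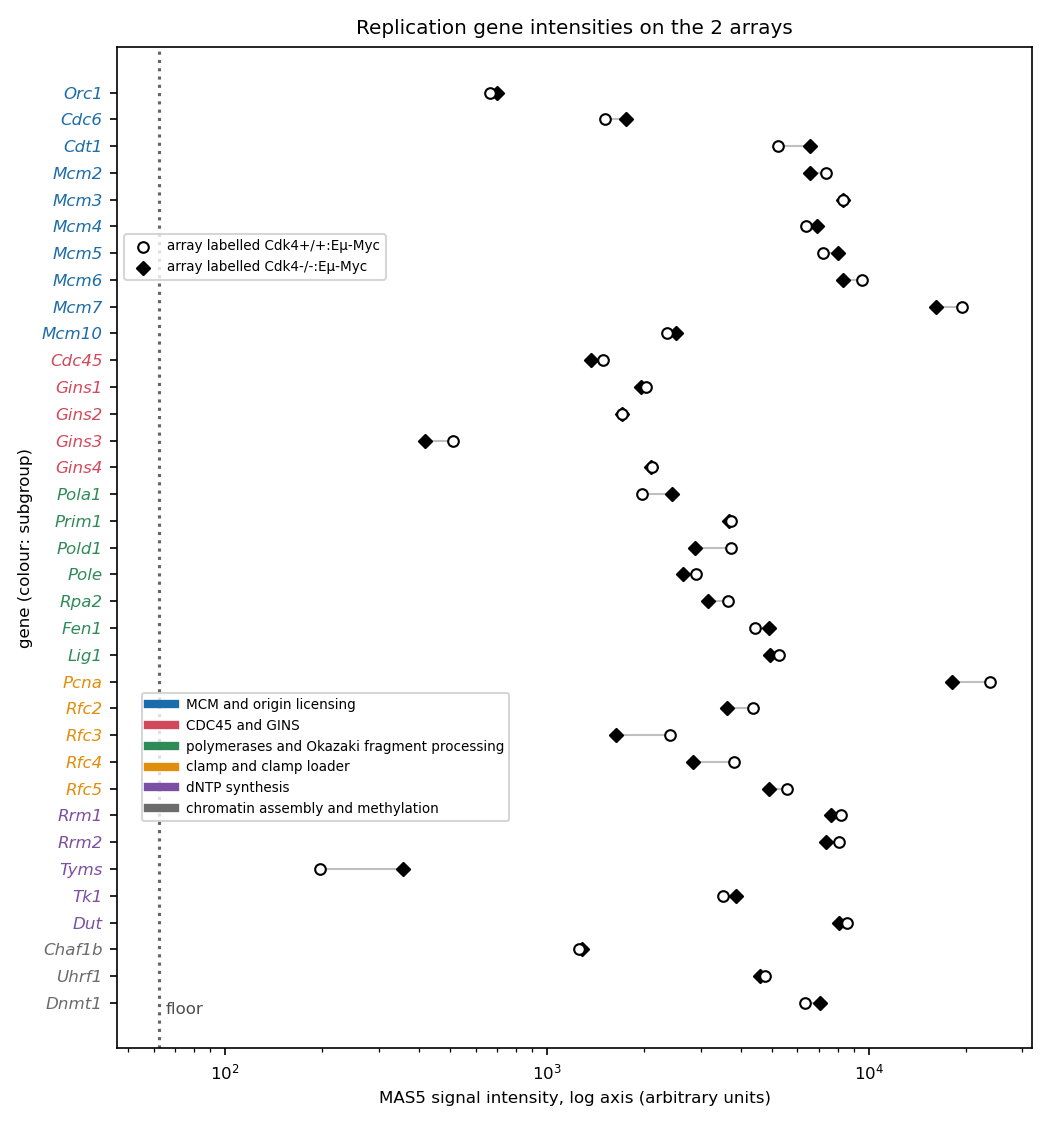
Each row is 1 replication gene, and the horizontal axis is MAS5 signal intensity on a log scale; open circles are the array labelled Cdk4+/+:Eµ-Myc, filled diamonds the array labelled Cdk4-/-:Eµ-Myc, and label colours give the subgroup. The pairs of symbols nearly overlap for most genes, the widest separation is that of Tyms (197 and 356), and every gene lies to the right of the floor at 62.2.

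The genes of CDC45 and GINS, which complete the helicase, had a median of -0.05. All 5 lay at or slightly below 0, from -0.29 to 0.00. Cdc45 stood at 1490 and 1366, a difference of -0.12. Of the 4 GINS subunits, Gins1 stood at 2032 and 1963, Gins2 at 1705 and 1704 and Gins4 at 2120 and 2108, which are near-identical readings. Gins3 stood at 511 and 418, a difference of -0.29 that its second probe set gave as -0.08. The direction of this subgroup turned, to a median of 0.02, when the median of the neighbouring genes was subtracted.

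Polymerase genes and those of Okazaki fragment processing had a median of -0.09 and a range from -0.38 to 0.31. The ends of this range were both DNA polymerase subunits. Pola1, the catalytic subunit of the polymerase that starts each fragment, stood at 1968 and 2444, a difference of 0.31. Prim1, the primase that works beside it, stood at 3733 and 3665, a difference of -0.03. The second Prim1 probe set read 1869 and 2108, a difference of 0.17, so its readings lie on both sides of 0 and within 1 probe set SD.

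Pold1, the catalytic subunit of the lagging-strand polymerase, stood at 3742 and 2877, which is 1.30-fold lower on the array labelled Cdk4-/- (-0.38). Its second probe set read 2517 and 2287, a difference of -0.14. Pole, the catalytic subunit of the leading-strand polymerase, stood at 2894 and 2641, a difference of -0.13. Rpa2, a subunit of the protein that coats single-stranded DNA, stood at 3654 and 3166, and its probe sets gave -0.21 and -0.30.

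Fen1 and Lig1, which trim and join Okazaki fragments, lay close to 0. Fen1, a flap endonuclease, stood at 4441 and 4901, and its probe sets gave 0.14 and -0.03. Lig1, the ligase, stood at 5249 and 4939, a difference of -0.09. These readings lie within 1 probe set SD of 0.

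The sliding clamp and its loader were the subgroup farthest from 0. All 5 genes were lower on the array labelled Cdk4-/-, with a median of -0.40 against 0.00 over all measured genes, which is a 1.32-fold difference. No gene of the subgroup reached 1.5-fold by its brightest probe set. The 5 genes lay below 0 under each of the 10 alternatives, and their median ranged from -0.40 to -0.25 over them. Changing the floor or leaving out shared probe sets could not move their brightest probe sets. Median centring, or adding 16 to each intensity in place of a floor, also left the median at -0.40. It was -0.25 under quantile normalization, -0.26 with the running median by intensity and -0.39 with the mean over probe sets. Subtracting the chromosome or the neighbours' median gave -0.32 and -0.36. The 6 further genes of clamps and their loaders had no common direction, with 3 above and 3 below 0. With the mean over probe sets and with the neighbours' median subtracted, 4 of the 6 lay below 0 (medians -0.16 and -0.12). With the running median by intensity 4 of the 6 lay above 0 (median 0.05). Among the 6 further genes Rfc1, the large subunit of the same loader, stood at 4145 and 3046, a difference of -0.44. Its other 2 probe sets had the same sign. Dscc1, of an alternative loader, stood at 296 and 445, a difference of 0.59, but its other probe set above the floor had the opposite sign. The other 4 genes (Atad5, Chtf8, Chtf18 and Pclaf) lay between -0.02 and 0.13. Rfc1 and Dscc1 are named after their values were seen.

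Rfc3, a small loader subunit, stood at 2404 and 1642, which is 1.46-fold lower (-0.55) and the lowest of the 35 differences. Its second probe set read 2218 and 1381, a difference of -0.68. Rfc4 stood at 3805 and 2833, a difference of -0.43, and its second probe set read 2514 and 1969, a difference of -0.35. For these genes both probe sets thus lay below 0 by more than 1 probe set SD.

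Rfc2 stood at 4359 and 3633, a difference of -0.26, with its other probe sets at -0.16 and 0.00. Rfc5 stood at 5565 and 4907, a difference of -0.18 from its only probe set. Pcna, the clamp itself, stood at 23857 and 18070, a difference of -0.40 from its only probe set. Under quantile normalization the difference of Pcna was only -0.03, while the loader genes Rfc3 and Rfc4 stood at -0.58 and -0.42 there.

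Genes of deoxynucleotide synthesis had a median of -0.09, with 4 of 5 within 0.13 of 0. This median had the opposite sign under quantile normalization (0.02), with the running median by intensity (0.05), with the neighbours' median subtracted (0.01), and at 0.13 both with the mean over probe sets and without shared probe sets. Rrm1, the large subunit of ribonucleotide reductase, stood at 8211 and 7604, and Rrm2, its S-phase subunit, at 8053 and 7334. The 2 other Rrm2 probe sets gave -0.16 and -0.06, and the second Rrm1 probe set gave -0.26. Tk1, the thymidine kinase of S phase, stood at 3528 and 3866, a difference of 0.13. Dut, which keeps uracil out of DNA, stood at 8551 and 8049, a difference of -0.09, but its second probe set read 273 and 437, a difference of 0.68.

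Tyms was the only gene of the 35 at 1.5-fold, at 197 on the array labelled Cdk4+/+ and 356 on the array labelled Cdk4-/-, which is 1.81-fold higher on the latter (0.86). Its readings were 3.16 and 5.72 times the floor. A second probe set read 102 and 140, a difference of 0.46, and the other 2 were below the floor on both arrays. With the chromosome median subtracted Tyms passed 2-fold, at 1.01, with that of its neighbours at 1.04, and with the floor at 458 it had no measured value. The difference of Tyms thus rests on signals close to the floor.

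Genes of chromatin assembly and maintenance methylation had a median of 0.03. Chaf1b, the middle subunit of chromatin assembly factor 1, stood at 1254 and 1281. Uhrf1, which reads hemimethylated DNA, stood at 4764 and 4603, and its second probe set gave -0.31. Dnmt1, the methyltransferase that it recruits, stood at 6322 and 7064, a difference of 0.16. The other 2 Dnmt1 probe sets gave 0.50 and 0.57, so the 3 readings agree in side and not in size. The median was -0.01 without shared probe sets and with the running median by intensity, and at 0.00 under quantile normalization.

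The second readings of these genes also centred near 0 but agreed only in part with the brightest probe sets. Of the 78 probe sets of the 35 genes, 36 others, from 26 genes, passed the floor on each array, with a median of -0.04. Of these 36, 24 had the sign of the brightest probe set of their gene, and the median gap to it was 0.20. At 2-fold 0 were higher and 1 was lower, and at 1.5-fold 2 were higher and 2 lower. The 1 past 2-fold was the second Cdc45 probe set, close to the floor at 182 and 85.7 (-1.09) and 0.96 away from the first.

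Several genes had probe sets of opposite sign. Mcm2 gave -0.16 by its brightest probe set and 0.46 by the second, which read 4547 and 6256. Mcm6 gave -0.20 and 0.13, and Mcm10 gave 0.10, with other probe sets at -0.35 and 0.43. Mcm3 had 5 readings from -0.21 to 0.60, the last at 142 and 216. No other probe set passed the floor for 9 genes, namely Pcna, Rfc5, Cdc6, Gins4, Pole, Lig1, Tk1, Pola1 and Chaf1b. Their values rest on a single reading on each array.

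**Figure D3:**
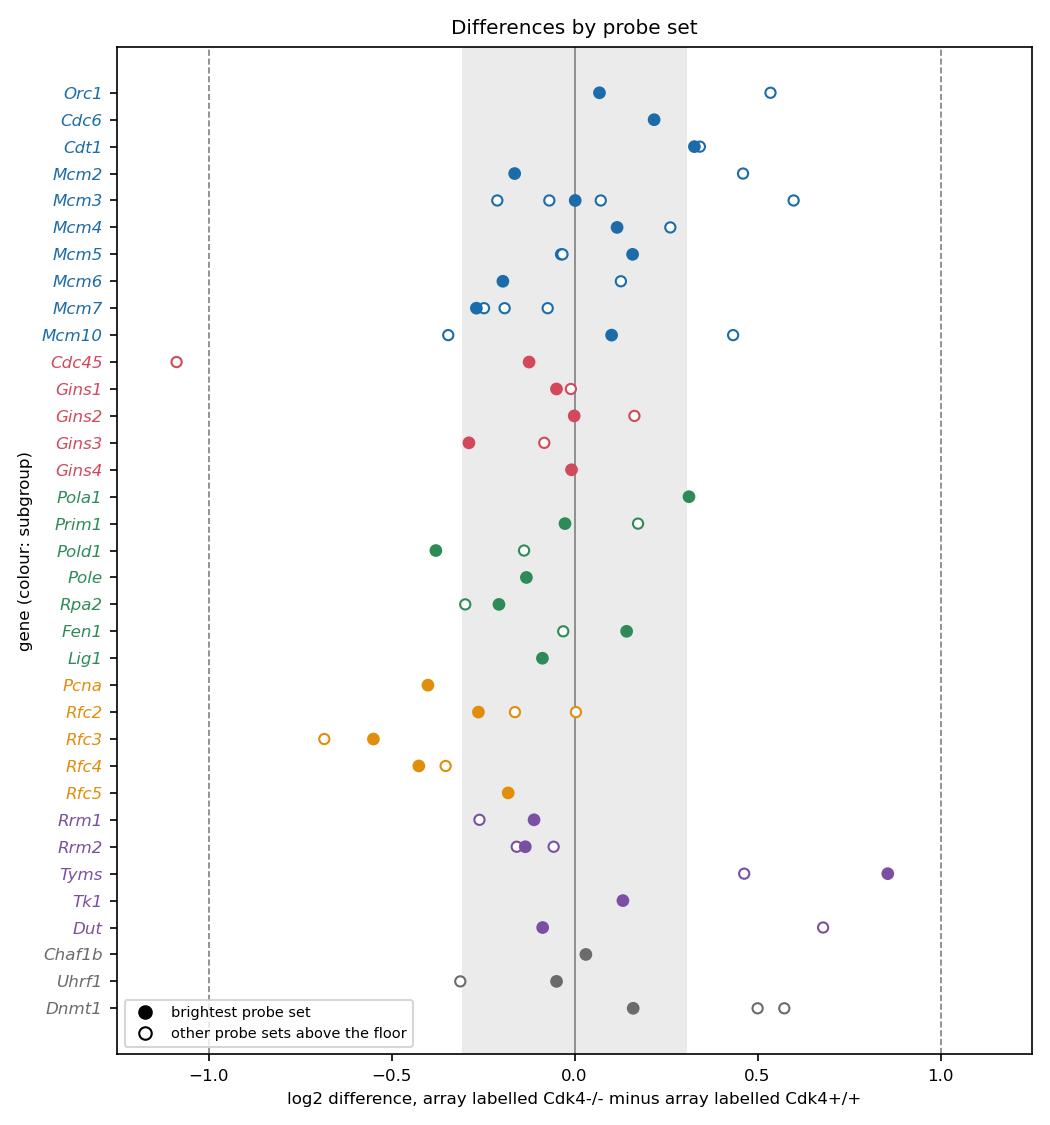
Each row is 1 replication gene, and the horizontal axis is the log2 difference, array labelled Cdk4-/- minus array labelled Cdk4+/+; filled points are the brightest probe set, open points further probe sets that passed the floor on each array, the grey band is 1 probe set SD (0.31) on each side of 0, and dashed lines mark 2-fold. Both points of Rfc3 and of Rfc4 lie left of the grey band, both points of Tyms lie right of it, and 1 open point, of Cdc45, passes a 2-fold line.

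The position of the genes along the chromosomes was compared with their differences, because the median difference varied from chromosome to chromosome. Positions were taken as gene order in the RefSeq table of the mouse assembly GRCm38.p6. The largest number of replication genes on a chromosome was 6, on chromosome 5, where Mcm7, Pole, Rfc2, Rfc3, Rfc5 and Tyms lie and where the median over 632 measured genes was -0.16. Chromosome 16, with Mcm4, Cdc45, Rfc4 and Chaf1b, had a median of -0.10 over 315 genes. All 4 loader genes thus lie on chromosomes with a median below 0, while Pcna lies on chromosome 2, with a median of 0.05.

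With the chromosome median subtracted, Rfc3 stood at -0.39, Rfc4 at -0.32, Rfc2 at -0.11 and Rfc5 at -0.03, and Pcna at -0.45. The subgroup median was then -0.32. Against the 10 nearest measured genes on each side, the picture varied by gene. Mcm7 (-0.27) had neighbours at a median of -0.26, with 16 of 20 below 0, and Mcm6 (-0.20) had neighbours at -0.20, with 17 of 20 below 0. The values of these genes and of the genes beside them were thus nearly equal. Rfc4 (-0.43) and Rfc2 (-0.26) had neighbours at 0.13 and 0.06, and Rfc3 (-0.55), which lies near a chromosome end and has 10 measured neighbours, had them at -0.19.

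Mcm2 lies on chromosome 6, whose median was 0.24. Of its 20 neighbours 15 were above 0, with a median of 0.29, while the brightest Mcm2 probe set gave -0.16 and the second 0.46. Prim1 lies on chromosome 10, as Cdk4 does, with 37 genes of the array between them. Its neighbours had a median of 0.36, with 13 of 20 above 0, and the probe sets of Prim1 itself gave -0.03 and 0.17. Chaf1b (0.03) had neighbours at -0.37. The part of the chromosomes in the differences of single genes was not tested.

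**Figure D4:**
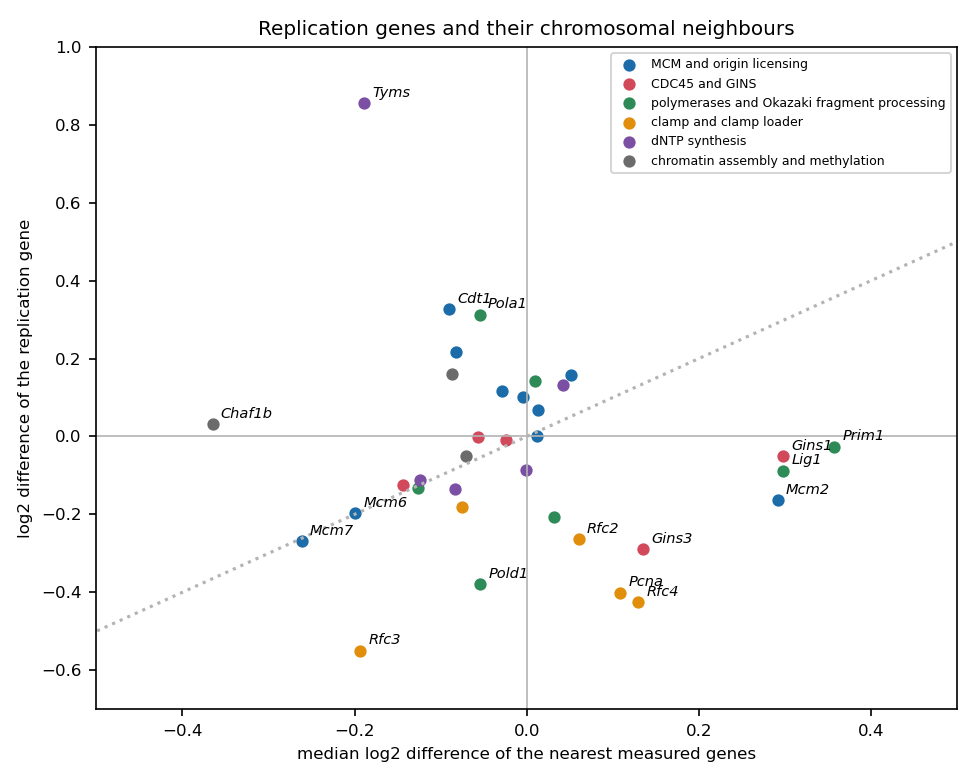
The horizontal axis is the median log2 difference of the nearest measured genes (10 on each side) and the vertical axis the log2 difference of the replication gene itself, both array labelled Cdk4-/- minus array labelled Cdk4+/+; the dotted line marks equal values and colours give the subgroup. Mcm6 and Mcm7 lie on the dotted line, Rfc2, Rfc4 and Pcna lie below 0 with neighbours above 0, and Tyms at 0.86 lies above neighbours at -0.19.

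Other genes of replication were read from a list of 55, of which 53 had a probe set with their symbol. Their median was -0.08, with 22 above and 31 below 0. At 2-fold 1 was higher and 0 lower, and at 1.5-fold 4 were higher (Pold4, Dna2, Mcm9 and Dscc1) and 2 lower (Orc5 and Rbbp7), which is 6 of 53 against the shares of all genes given above. Rbbp7, a histone chaperone, is named because it makes up these counts, after its value was seen. Pold4, the smallest subunit of the lagging-strand polymerase, stood at 1099 and 3519, which is 3.20-fold higher on the array labelled Cdk4-/- by its only probe set. Its difference was between 1.62 and 1.72 under all 10 alternatives. Of the other subunits of the same enzyme, Pold3 stood at 0.41, Pold2 at -0.09 and Pold1 at -0.38, so they lay on both sides of 0.

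Dna2, a nuclease and helicase that helps to process fragments, stood at 1138 and 2168, a difference of 0.93, and its other probe sets gave 0.78 and 0.38. Mcm9, a relative of the ring subunits with a part in repair, stood at 207 and 372, a difference of 0.85. None of its other probe sets passed the floor on both arrays, and with the floor at 458 it had no measured value. Orc5, a subunit of the origin recognition complex on chromosome 5, stood at 2423 and 1523, a difference of -0.67 that was -0.32 with the neighbours' median subtracted. By role, the further genes of CDC45 and GINS function had a median of 0.12, with 6 of 7 above 0, and those of polymerases and fragment processing 0.08, with 8 of 14 above 0. The further licensing genes had a median of -0.11, with 4 of 11 above 0, and those of chromatin assembly -0.15, with 1 of 7 above 0. The polymerase median turned to -0.05 with the chromosome or the neighbours' median subtracted, and the licensing median to 0.07 with the mean over probe sets and to 0.03 with the neighbours' median subtracted. With the neighbours' median subtracted, 4 of the 7 CDC45 and GINS genes lay above 0 (median 0.01), and 3 of the 7 chromatin genes (median -0.15). The 8 further genes of nucleotide metabolism read here, not all of which make nucleotides, all lay below 0, with a median of -0.32. Under quantile normalization 7 of these 8 lay below 0, with a median of -0.18, with the neighbours' median subtracted 7 of 8, with the mean over probe sets 6 of 8, and without shared probe sets 4 of 5.

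Genes above and beside replication in the cell cycle also had medians near 0. The 17 genes of E2F factors, their partners, pocket proteins, cyclin E, Cdk2 and Cdc25a had a median of -0.03, from -0.58 (E2f2) to 0.54 (E2f8). The second probe set of E2f2 had the same sign as the first, and that of E2f8 had the opposite sign. At 1.5-fold there were 0 of the 17, but both ends lie near that limit: 1 was lower by 1.5-fold under quantile normalization, with the mean over probe sets and with the chromosome median subtracted, and 1 was higher with the neighbours' median subtracted. Of 30 mitosis genes 29 had a probe set, with a median of -0.04 and 0 at 2-fold. At 1.5-fold 1 was lower, the S-phase and mitotic cyclin gene Ccna2, at 10925 and 7097 (-0.62), and its second probe set gave -0.67. It was under 1.5-fold by quantile normalization (-0.48) and with the running median by intensity (-0.47). Ccna2 lies on chromosome 3, and its difference was -0.15 with the chromosome median subtracted and -0.02 with that of its neighbours. The medians of the replication genes (-0.05) and of the mitosis genes were thus nearly the same, and no test of a difference between these lists was made.

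**Figure D5:**
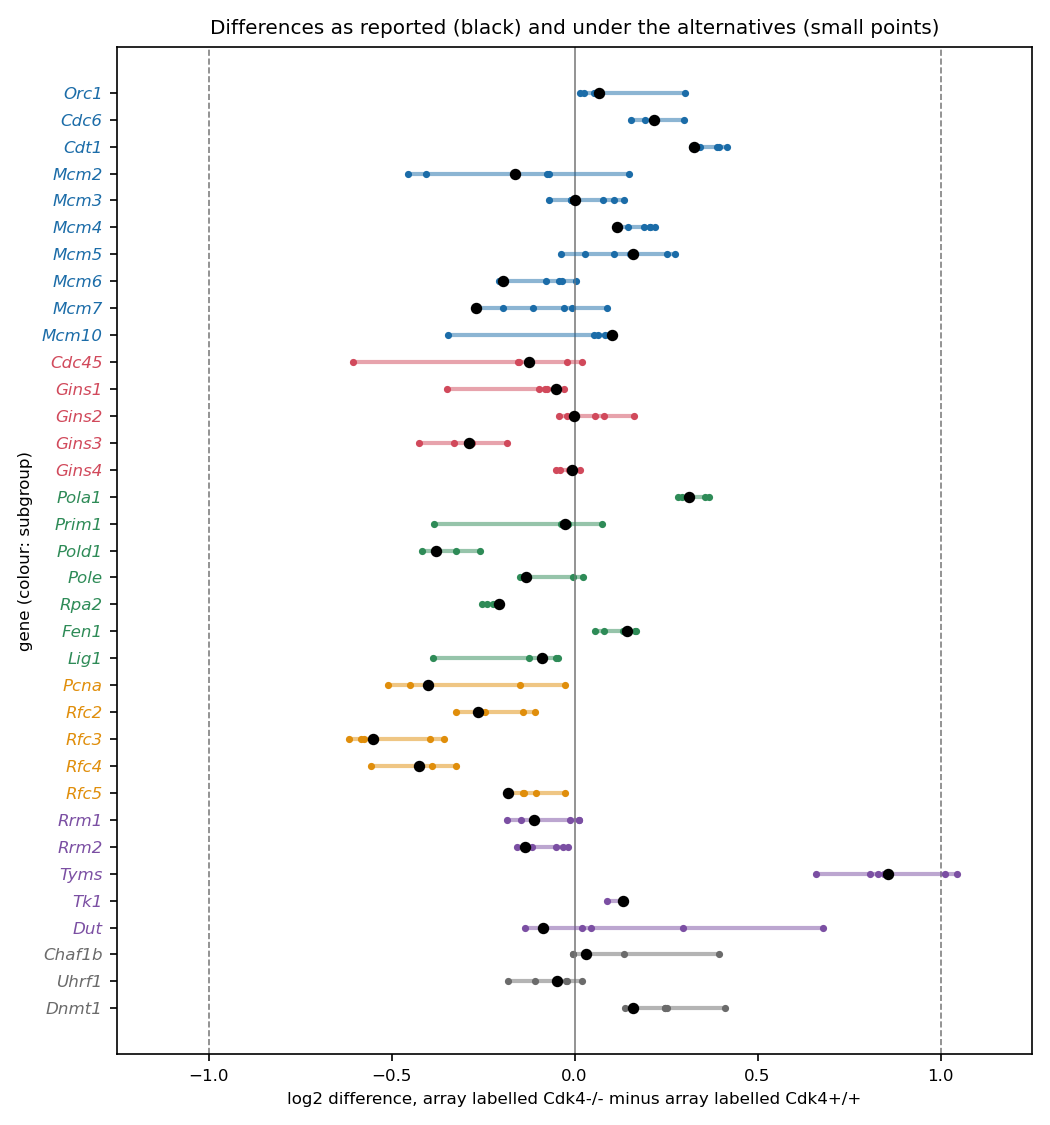
Each row is 1 replication gene, and the horizontal axis is the log2 difference, array labelled Cdk4-/- minus array labelled Cdk4+/+; black points are the values as reported, small points the values under the alternatives, bars their range, and dashed lines mark 2-fold. Rfc3 and Rfc4 lie left of 0 and Cdt1, Pola1 and Tyms right of it at every point, while Dut, Mcm2 and Mcm10 span 0. So do Cdc45, Chaf1b, Gins2, Gins4, Mcm3, Mcm5, Mcm6, Mcm7, Pole, Prim1, Rrm1 and Uhrf1.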

How the data were processed

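RNA of cultured mouse B-lymphoma cells was hybridised to 1 Affymetrix array per genotype, from 6 µg of total RNA per the labels' protocols. The authors deposited linear signal intensities, for which the submitters' processing notes name MAS5, version not given in the sources used here. The trimmed mean (2% from each end) of the 45101 deposited intensities was 500.003 on both arrays, so the common scaling changed nothing. The number of arrays limits the precision.

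Intensities were floored at the median over both arrays without 64 control probe sets (62.2), and log2 was then taken. Symbols came from GEO's platform annotation (34958 probe sets with 1 symbol, 932 with several, 9211 with none), and 34754 matched the RefSeq table of GRCm38.p6. A gene was represented by its probe set of highest mean log2 intensity. Each replication gene is named, and of each other list at most 4 genes at 1.5-fold or more by rule. Members and lists were chosen with earlier results of these data known. The alternatives covered scaling, floor, probe set choice and chromosome. Scripts used Python 3.11.15, numpy 2.4.6 and pandas 2.3.3 and were tested on simulated data.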

Additional observations from a re-analysis of the deposited data

How the results depend on the processing

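The median over the replication genes stayed between -0.08 and 0.00 as reported and under the 10 alternatives. It and the 6 subgroup medians moved by less than 1 probe set SD in each. That SD is the error of a single probe set and is a loose limit for a median over several genes. The medians of licensing and MCM, of CDC45 and GINS, of deoxynucleotide synthesis and of chromatin genes changed sign under some alternatives. The count higher by 1.5-fold, 1 as reported, was 0 after raising the floor to 458, where Tyms has no measured value, and 2 without shared probe sets, where Dut joined Tyms. The count lower by 1.5-fold, 0 as reported, was 2 with the mean over probe sets (Cdc45 and Rfc3). The count higher by 2-fold, 0 as reported, was 1 with the chromosome median subtracted and 1 with the median of 20 neighbouring genes subtracted, the latter chosen after seeing the data. That gene was Tyms, at 1.01 and 1.04. Of the values of single genes under the alternatives, 9 moved by more than 1 probe set SD and 334 did not. Many of the 334 could not move, so this count does not measure stability. A changed floor leaves any gene above it as it was, and median centring shifted every value by only 3.1e-05. Leaving out shared probe sets cannot change a gene whose brightest probe set is unshared. Averaging cannot change a gene with a single probe set above the floor. The medians share this limit. Over all genes the floor also moved the counts at 2-fold: a floor at the 25th percentile gave 833 higher and 779 lower, and one at the 75th gave 118 and 83. No paired analysis was possible because each group holds 1 array. Genes near the floor, such as Tyms, are limited by signal over background.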
